A study of Homo sapiens with 4 samples.

Results

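The genes described here are 6 genes of antigen presentation on MHC class II molecules: the class II chain genes HLA-DRA, HLA-DRB1, HLA-DPA1 and HLA-DQA1, the invariant chain gene CD74, and CIITA, the class II transactivator. They were chosen by name, and every probe listed for one of them in the platform's probe-gene table was taken, which gave 45 of the 15246 probes of the array. HLA-DRA had 5 probes, HLA-DRB1 7, HLA-DPA1 4, HLA-DQA1 6, CD74 12 and CIITA 11. Of the 45 probes, 35 had a value on all 4 arrays, and all 6 genes had at least 3 such probes. The whole table held 3589 genes with such probes.

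OCI-Ly3 cells, from a human B-cell lymphoma of the diffuse large, activated subtype, carried a hairpin that doxycycline switches on and that targets CHUK, the gene of the kinase IKKa. Each of the 4 two-colour arrays set cells given 20 ng/ml doxycycline (Cy5) against cells without it (Cy3). On 2 arrays both channels also had MLN120b, an inhibitor of the related kinase IKKb, at 12.5 uM. The inhibitor was given for 3 h where doxycycline lasted 2 days and for 24 h where it lasted 3 days. On the other 2 arrays, with doxycycline for 2 or 3 days, neither channel had inhibitor. These arrays are called the inhibitor arrays and the arrays without inhibitor, and the 2 arrays of a group are 2 time points, not repeats. The sources used here do not say whether the line was 1 clone, and no array had the dyes swapped. The study asked whether IKKa takes over in the classical NF-kB pathway when IKKb is blocked. Whether arrays shared an uninduced RNA is likewise not stated.

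Values are log2 ratios of the 2 channels as deposited, and a gene's value is the mean of its probes measured on all 4 arrays. The file states neither the log base nor the direction. Base 2 and doxycycline over no doxycycline are the likely reading, so a value below 0 is read as lower in the cells with the hairpin; if it ran the opposite way, all signs given here would flip. CHUK, the hairpin's target, stood at -1.30 and -1.01 on the inhibitor arrays and at -0.59 and -0.87 on the arrays without inhibitor. The median over genes of each array lay between -0.06 and -0.01, and its median absolute deviation was 0.25 and 0.38 on the inhibitor arrays (2 and 3 days) and 0.16 and 0.26 on the arrays without inhibitor. A ratio does not give the level of a gene in either channel. The B-cell identity of the line could therefore not be read from marker levels, although 9 of 10 listed B-cell marker genes had values on all 4 arrays.

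MHC class II molecules are pairs of an alpha and a beta chain that show peptides from the endocytic route to CD4+ T cells. The invariant chain escorts newly made pairs to that route and keeps their groove closed until it is cut away by cathepsins and HLA-DM helps a peptide in. B cells make class II constantly, and CIITA, which does not bind DNA by itself, is the regulator on which this depends: it docks on a complex of RFX factors, CREB and NF-Y held on the X and Y boxes that class II promoters and the CD74 promoter share.

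Since CIITA works through factors such as NF-Y on the Y box, the 250 bases before the RefSeq gene start are shown for 3 of the target genes (GRCh38.p14, 5′ to 3′ on the gene's strand). Capitals mark the Y box core ATTGG or its reverse complement CCAAT, and matches to the kB consensus, searched on both strands. The HLA-DRB1 window is chr6:32589849-32590098, minus strand, the HLA-DQA1 window chr6:32637156-32637405, plus strand, and the CD74 window chr5:150412911-150413160, minus strand.
HLA-DRB1: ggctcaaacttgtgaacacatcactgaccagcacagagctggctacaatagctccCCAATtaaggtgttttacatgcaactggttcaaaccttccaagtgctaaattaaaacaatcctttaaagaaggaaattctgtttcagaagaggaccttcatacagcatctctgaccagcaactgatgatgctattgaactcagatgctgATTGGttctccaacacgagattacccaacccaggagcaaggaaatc
HLA-DQA1: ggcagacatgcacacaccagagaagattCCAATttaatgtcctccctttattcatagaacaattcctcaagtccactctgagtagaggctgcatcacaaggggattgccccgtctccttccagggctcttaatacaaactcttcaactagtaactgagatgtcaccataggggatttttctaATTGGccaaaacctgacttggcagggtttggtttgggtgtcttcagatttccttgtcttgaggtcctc
CD74: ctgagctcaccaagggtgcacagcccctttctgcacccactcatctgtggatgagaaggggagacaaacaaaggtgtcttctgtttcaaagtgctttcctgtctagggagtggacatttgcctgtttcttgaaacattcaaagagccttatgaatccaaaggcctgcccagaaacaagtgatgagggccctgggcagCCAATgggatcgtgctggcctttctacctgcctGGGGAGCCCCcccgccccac

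Windows were at hand for 4 of the 6 genes, not for HLA-DRA and CIITA. The Y box core was in the windows of HLA-DRB1, HLA-DQA1 and CD74 but in neither window of HLA-DPA1, which has 2 RefSeq starts, and 32% of all 35116 promoter windows of this length held it. The nearest one began 46 bases before the start in HLA-DRB1, 68 in HLA-DQA1 and 53 in CD74, and HLA-DRB1 and HLA-DQA1 had a further one farther away. Of 9 other class II genes with a window, all 9 held it. Among the windows of the 6 genes CD74 had a kB match, 20 bases before the start. Of the 9 other class II genes 1, HLA-DQB2, had one, and 5.21% of all windows held one. No motif overlapped another in the 3 windows shown. These matches describe letters in the window. The X box was not searched.

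None of the 6 genes passed the test in any comparison. With limma and Benjamini-Hochberg adjustment over 3589 genes, 0 of 6 were called on the inhibitor arrays, where 4.57% of all genes were (2 of 6 had an unadjusted p under 0.05, against 28.3% of all genes). On the arrays without inhibitor 0 of 6 were called, as were 0% of all genes, with 1 of 6 at an unadjusted p under 0.05 against 11.1% of all. For the difference between the groups 0 of 6 were called, again with 0% of all genes, and 0 of 6 had an unadjusted p under 0.05 against 4.82%. The sizes of the measured ratios and the agreement between probes are given gene by gene. In RNA of whole cultures, fewer cells with a transcript and less transcript per cell cannot be told apart. No label names separate cultures, and the p-values therefore measure only the spread between these arrays.

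**Figure D1:**
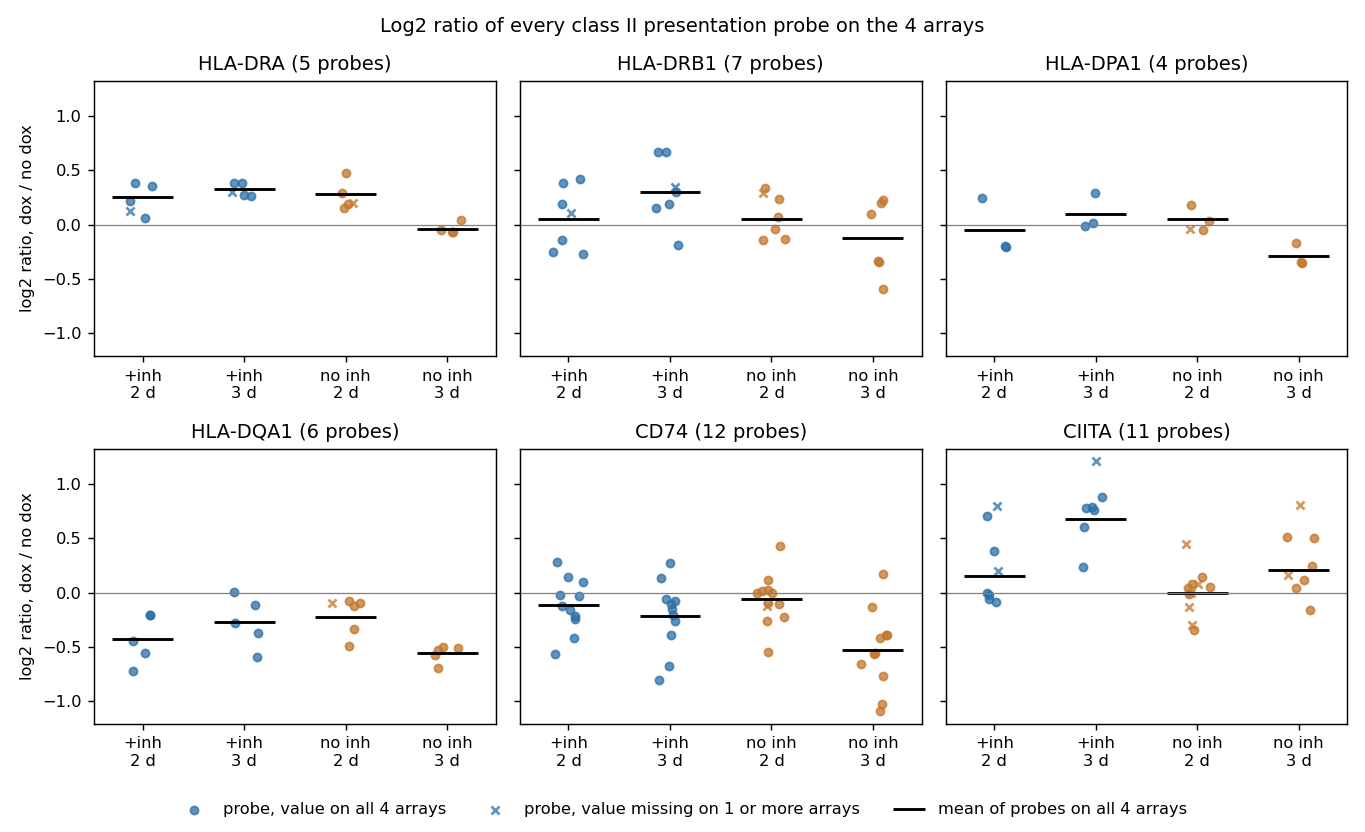
Log2 ratio (doxycycline over no doxycycline, y axis) of each probe of the 6 genes on the 4 arrays (x axis: inhibitor arrays at 2 and 3 days of doxycycline in blue, arrays without inhibitor at 2 and 3 days in orange). Circles are probes with a value on all 4 arrays, crosses are probes that lack 1 or more values, and bars are the means of the circles; all CIITA probes with a value lay above 0 on the 24 h inhibitor array, and the HLA-DQA1 bar lay below 0 on every array.

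CIITA had the highest mean ratio of the 6 genes on the inhibitor arrays. Its log2 ratio was 0.15 with 3 h and 0.68 with 24 h of inhibitor, against -0.005 and 0.21 at 2 and 3 days without inhibitor. The 24 h value stood apart from the other 3 and lay at percentile 93.7 of all genes on that array. The mean was 0.41 ± 0.37 (SD, n = 2) with inhibitor, 1.33-fold higher in the likely direction, and 0.10 ± 0.15 without. The limma adjusted p was 0.137 with inhibitor (95% interval 0.05 to 0.77) and 0.863 without (-0.26 to 0.46). The intervals given here are not adjusted for the number of genes. They can therefore exclude 0 where the adjusted p does not pass.

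The CIITA probes agreed best in sign on the 24 h array, but not in size. The SD over the 6 averaged probes was 0.23 there and 0.32 on the 3 h array. Without inhibitor it was 0.17 at 2 days and 0.26 at 3 days. On the 24 h array all 7 probes with a value lay above 0, between 0.24 and 1.21 with a median of 0.78. On the 3 h array 4 of 8 were above 0 (-0.09 to 0.80), as were 6 of 11 at 2 days without inhibitor (-0.34 to 0.45) and 7 of 8 at 3 days (-0.16 to 0.81). The high mean of the inhibitor arrays thus came with full agreement in sign at 24 h. At 3 h, 2 of the 6 probes that enter the mean were above 0 and 4 below. Of the 11 probes 5 were missing from at least 1 array, more than for any other of the 6 genes. With the doxycycline day as a block CIITA passed (adjusted p = 0.0325), in a fit that called 25.3% of all genes, and without the 3 h array (0.675, adjusted p = 0.00487), in a fit that called 23.9%. Without the 24 h array it was 0.15 (adjusted p = 0.818). In both of these the lone inhibitor array is assumed to vary like the arrays of the other group.

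HLA-DRA, the nearly invariant alpha chain of HLA-DR, lay above 0 on 3 of 4 arrays. Its log2 ratio was 0.26 on the 3 h and 0.33 on the 24 h inhibitor array, against 0.28 and -0.04 at 2 and 3 days without inhibitor. The 3-day array without inhibitor was the one low array, and at 2 days without inhibitor the gene stood at percentile 95.9. The mean was 0.29 ± 0.05 (SD, n = 2) with inhibitor and 0.12 ± 0.22 without (limma adjusted p = 0.178 and 0.774). Its probes agreed closely: all 5 were above 0 on both inhibitor arrays and at 2 days without inhibitor, and 3 of 4 were below 0 at 3 days without it, between -0.07 and 0.05 in all.

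HLA-DRB1, a beta chain that pairs with HLA-DRA, had 0.06 on the 3 h and 0.30 on the 24 h inhibitor array, against 0.05 and -0.12 at 2 and 3 days without inhibitor. The groups did not overlap, but the nearest arrays, both of 2 days, were at 0.0552 with and 0.0548 without inhibitor. HLA-DRB1 was the 1 gene of the 6 whose inhibitor arrays both lay above both arrays without inhibitor, a pattern of 19.4% of all genes. The mean was 0.18 ± 0.17 (SD, n = 2) with inhibitor and -0.03 ± 0.13 without (adjusted p = 0.38 and 0.939). Its probes fell on both sides of 0: of 6 measured on all arrays, 3 were above 0 on all 4 arrays and 1 was below 0 on all 4, and their means over the arrays spanned 0.58, more than the 0.42 spanned by the array means. HLA-DRB1 has near-identical copies in the genome, HLA-DRB5 among them. Probe sequences were not used here, so which copy each probe read was not tested.

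HLA-DPA1, the alpha chain of HLA-DP, was near 0 on 3 of 4 arrays. It had -0.05 on the 3 h and 0.10 on the 24 h inhibitor array, against 0.05 and -0.29 at 2 and 3 days without inhibitor. The 3-day array without inhibitor was again the lowest. Its mean was 0.02 ± 0.11 (SD, n = 2) with inhibitor and -0.12 ± 0.24 without (adjusted p = 0.917 and 0.793). All 3 probes were below 0 at 3 days without inhibitor, and 2 of 3 were above 0 on the 24 h array.

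HLA-DQA1, the alpha chain of HLA-DQ, was below 0 on every array and had the lowest mean of the 6 genes in both groups. Its log2 ratio was -0.42 on the 3 h and -0.27 on the 24 h inhibitor array, against -0.23 and -0.56 at 2 and 3 days without inhibitor. The 2 groups overlapped. The mean was -0.35 ± 0.11 (SD, n = 2) with inhibitor, 1.27-fold lower, and -0.39 ± 0.24 without, 1.31-fold lower. Neither passed in limma (adjusted p = 0.139 with an unadjusted 95% interval of -0.65 to -0.04, and 0.34 with -0.70 to -0.09). Among its 5 probes measured on all arrays 4 were below 0 on all 4, and the remaining probe was above 0 on the 24 h array alone, at 0.01.

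CD74 was the other gene below 0 on all 4 arrays, a pattern of 25.8% of all genes, while none of the 6 was above 0 on all 4 arrays, as 15.5% of all genes were. It had -0.11 on the 3 h and -0.21 on the 24 h inhibitor array, against -0.06 and -0.53 at 2 and 3 days without inhibitor. The last value was the lowest and stood at percentile 6.7 of that array. The mean was -0.16 ± 0.07 (SD, n = 2) with inhibitor and -0.29 ± 0.33 without (adjusted p = 0.488 and 0.486). The means of its 11 probes over the arrays ran between -0.70 and 0.13, a span of 0.83 against 0.47 for its array means, with an SD of 0.26 beside 0.27 for the 6 probes of HLA-DRB1. Of these 11 probes 6 were below 0 on all 4 arrays, and at 3 days without inhibitor 10 of 11 were below 0, between -1.09 and 0.17.

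By sign alone, 11 of the 35 probes were below 0 on all 4 arrays, against 25.7% of all probes, and 6 were above 0 on all 4, against 14.7%. Tested as single probes, 6 of the 35 passed on the inhibitor arrays, where 11.7% of 6796 probes did. They were 2 of CIITA (0.79 and 0.57, limma adjusted p = 0.00788 and 0.0424), 2 of HLA-DRB1 (0.54 and 0.53, adjusted p = 0.0352 and 0.0413), 1 of HLA-DQA1 (-0.65, 0.0149) and 1 of CD74 (-0.62, 0.0315). Without inhibitor 1 passed, the same CD74 probe at -0.79 (adjusted p = 0.046), where 1.03% of probes did, and for the difference none of the 35 did, with 0% of all probes. Each of these 4 genes also had probes on the other side of 0 on 1 or more arrays of that group, so the calls are of probes and not of genes. A constant dye bias of a probe would recur on every array, and without swapped dyes it cannot be told apart from a steady effect of doxycycline.

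Differences between 2 genes within an array were steadier for some pairs than for others. HLA-DRA minus HLA-DQA1 was 0.68 on the 3 h and 0.60 on the 24 h inhibitor array, against 0.51 and 0.52 at 2 and 3 days without inhibitor. HLA-DRA minus HLA-DPA1 ran between 0.23 and 0.31. HLA-DRB1 minus HLA-DQA1 was less steady, at 0.48 and 0.57 with inhibitor, against 0.28 and 0.44 without. The ratios of the 4 class II chains had the same order on every array, HLA-DRA highest, then HLA-DRB1, HLA-DPA1 and HLA-DQA1, although HLA-DRB1 and HLA-DPA1 were at 0.055 and 0.054 at 2 days without inhibitor. Without swapped dyes, a constant bias of the probes cannot be told apart from a steady order of the genes. CIITA minus CD74 varied most of the pairs computed, at 0.26 and 0.89 on the inhibitor arrays and 0.06 and 0.74 without inhibitor, higher at 3 days in both groups.

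The arrays of 3 days set the groups apart most. The difference between the inhibitor array of 24 h and the array without inhibitor, both at 3 days of doxycycline, was 0.36 for HLA-DRA, 0.42 for HLA-DRB1, 0.39 for HLA-DPA1, 0.29 for HLA-DQA1, 0.32 for CD74 and 0.47 for CIITA. All 6 were above 0, as were 58.7% of all genes, and the median of the 6 was 0.38 against 0.05 over all genes. Of the 35 probes 34 were above 0, against 56.2% of all probes; the exception was an HLA-DQA1 probe. The 6 genes stood between percentile 83.5 and percentile 92.1 of all genes in this difference.

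At 2 days the same difference, now with 3 h of inhibitor, was -0.02 for HLA-DRA, 0.00 for HLA-DRB1, -0.10 for HLA-DPA1, -0.20 for HLA-DQA1, -0.05 for CD74 and 0.16 for CIITA. HLA-DRB1 and CIITA were above 0, as were 49.7% of all genes. Of the 35 probes 10 were above 0, against 48.7% of all probes, and the median of the 6 genes was -0.04. Each of these differences sets 1 array against 1, so neither has a replicate check or a test, and probes of a gene are not replicates. The time of inhibitor and the time of doxycycline change together between the 2 days, and their parts cannot be told apart.

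**Figure D2:**
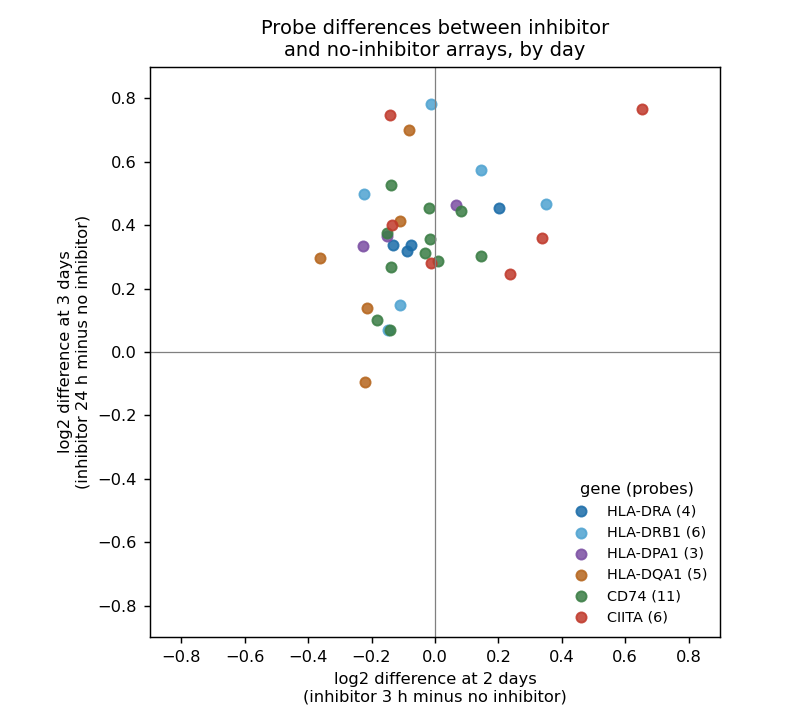
Each point is 1 of the 35 probes with a value on all 4 arrays, coloured by gene. The x axis gives the log2 difference between the inhibitor array and the array without inhibitor at 2 days and the y axis that at 3 days; 34 of 35 points lie above 0 on the y axis and 10 of 35 to the right of 0 on the x axis.

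The gap at 3 days came with values on both sides. Without inhibitor 5 of 6 genes were lower at 3 than at 2 days, by -0.31 for HLA-DRA, -0.18 for HLA-DRB1, -0.34 for HLA-DPA1, -0.33 for HLA-DQA1 and -0.47 for CD74, while CIITA was higher by 0.21, as were 39.1% of all genes. The median of the 6 was -0.32 against -0.07 over all genes, and 29 of 35 probes were lower at 3 days, against 63.7% of all probes. With inhibitor 5 of 6 genes were higher at 3 than at 2 days, by 0.07 for HLA-DRA, 0.24 for HLA-DRB1, 0.15 for HLA-DPA1, 0.16 for HLA-DQA1 and 0.52 for CIITA, while CD74 was lower by -0.10; 44.2% of all genes were higher. CIITA was thus higher at 3 days in both groups, whereas the 4 chain genes were lower at 3 days without inhibitor and higher with it. These are again single arrays against single arrays.

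Over both time points the difference with minus without inhibitor was above 0 for all 6 genes, as for 54.6% of all genes, and small beside its error. It was 0.31 for CIITA (SE 0.22, 95% interval -0.20 to 0.82), 0.21 for HLA-DRB1 (SE 0.17, -0.20 to 0.62), 0.17 for HLA-DRA (SE 0.18, -0.25 to 0.59), 0.14 for HLA-DPA1 (SE 0.18, -0.29 to 0.58), 0.13 for CD74 (SE 0.20, -0.34 to 0.61) and 0.05 for HLA-DQA1 (SE 0.18, -0.38 to 0.48). The limma adjusted p was 0.999 for each. Every interval held 0, and every one also held a difference of 0.47, so these arrays do not show that the ratios were alike in the 2 groups. The median of the 6 was 0.16 against 0.02 over all genes. By probe, the difference was above 0 for all 4 of HLA-DRA, all 3 of HLA-DPA1, all 6 of CIITA, 5 of 6 of HLA-DRB1, 9 of 11 of CD74 and 2 of 5 of HLA-DQA1. The share of all probes above 0 in this difference was not computed. Probes of a gene were read on the same arrays and are not replicates.

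**Figure D3:**
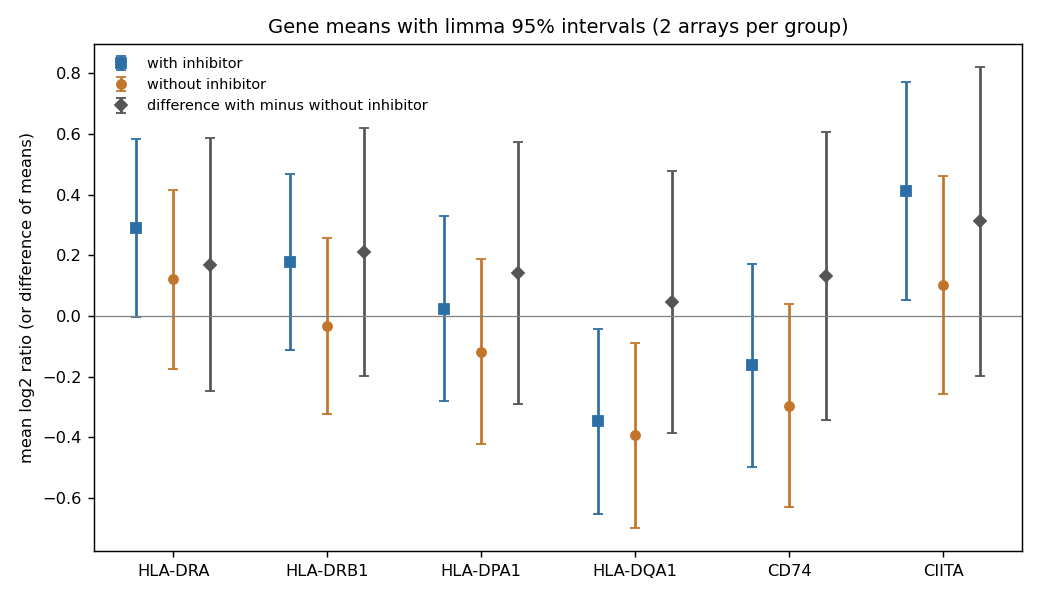
Mean log2 ratio of each gene on the inhibitor arrays (blue squares) and on the arrays without inhibitor (orange circles), and the difference of these means (grey diamonds), with 95% intervals from limma (2 arrays per group). Every interval of a difference spans 0, and HLA-DQA1 has the lowest mean in both groups.

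Of 12 other class II and peptide loading genes, 4 had a probe and 3 had values on all 4 arrays. None was called. HLA-DMB, a chain of the peptide exchanger HLA-DM, had 0.17 and 0.32 on the inhibitor arrays and 0.04 and -0.03 without inhibitor. Its probes with a value on the 3 h array lay between -0.40 and 0.55. The lowest of them lacked a value on the 24 h array and did not enter the mean. HLA-DQB1, the beta chain that pairs with HLA-DQA1, had 0.12 and 0.25 with inhibitor and -0.01 and -0.05 without. HLA-DPB1, the partner of HLA-DPA1, had 0.08 and 0.08 with inhibitor and 0.09 and -0.10 without. As gene values, all 3 had a mean above 0 on the inhibitor arrays, as did 48.4% of all genes. Their probes did not all share this sign. Those of HLA-DQB1 ran between -0.08 and 0.34 on the 3 h array, and those of HLA-DPB1 between -0.02 and 0.18 at 24 h. By gene mean, HLA-DQB1 lay on the other side of 0 from its partner HLA-DQA1 with inhibitor (0.18 and -0.35). Both were below 0 without inhibitor. HLA-DOB, a chain of the HLA-DM modulator HLA-DO, had 1 probe, with 0.77 on the 24 h array and 0.17 and 0.18 without inhibitor, and lacked a value on the 3 h array.

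Genes of the factors that act on class II promoters gave 1 call among 18 measured. It was on the inhibitor arrays, where 4.57% of all genes were called. IRF4, a factor of activated B-cell lymphoma that was listed here for its family's part in CIITA transcription, fell on the inhibitor arrays, with -0.53 and -0.86, against -0.28 and -0.66 without inhibitor (mean -0.70 ± 0.23, SD, n = 2, limma adjusted p = 0.0443). Without the array of 24 h it was -0.53 (adjusted p = 0.105), and the call also ended without either array of doxycycline alone (-0.70, 0.0793), after centring (-0.67, 0.0548), after scaling to equal spread (-0.56, 0.0565) and with probes measured at least once in each group (-0.70, 0.0508). It held with the day as a block (0.0106) and without the 3 h array (-0.86, 0.000203). IRF8, a related factor, stood at -0.56 with inhibitor (adjusted p = 0.0756) and EP300, a histone acetyltransferase, at -0.44 (0.0701). RFX5 and RFXANK, the subunits of the X box complex that were measured, stood at -0.07 and -0.09 with inhibitor and -0.17 and -0.06 without. CREBBP, an acetyltransferase related to EP300, had 0.30 and 0.27 with inhibitor and -0.05 and 0.09 without, and KAT2B, another acetyltransferase, 0.38 and 0.11 with inhibitor and -0.33 and -0.10 without. PRDM1, the gene of the repressor Blimp-1, which silences CIITA in plasma cells, had 0.06 and -0.08 with inhibitor and 0.14 and 0.62 without. The list median was -0.08 with inhibitor and -0.05 without, against -0.01 and -0.03 over all genes.

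Among 9 measured lysosomal genes 1 was called, on the inhibitor arrays, where 4.57% of all genes were. CTSC, the dipeptidyl peptidase cathepsin C, fell there, with -0.61 and -0.99, against -0.24 and -0.82 without inhibitor (mean -0.80 ± 0.26, SD, n = 2, limma adjusted p = 0.0474). It rested on 1 probe, and the call ended without either array of doxycycline alone (-0.80, 0.0643), after centring (-0.78, 0.0589), after scaling (-0.65, 0.0565) and with probes measured at least once in each group (-0.80, 0.053). It held with the day as a block (0.00911), without the 24 h array (-0.61, 0.0409) and without the 3 h array (-0.99, 1.36e-05). CTSS, the protease that makes the last cuts of the invariant chain in B cells, had 0.20 and -0.14 with inhibitor and 0.07 and -0.38 without. CTSB, a general cathepsin with 8 probes, had a mean of 0.25 with inhibitor and 0.01 without, and IFI30, the thiol reductase that opens disulfides of antigens, -0.17 and -0.14. LGMN, an asparagine-specific protease, had -0.81 at 2 days without inhibitor and lay between -0.11 and 0.03 on the other arrays.

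The class I route gave no call among 15 measured genes, where 4.57% of all genes were called with inhibitor and 0% without. HLA-G had the lowest mean with inhibitor, at -0.71 ± 0.46 (SD, n = 2, adjusted p = 0.0539), and stood at -0.40 ± 0.02 without. TAP1, a chain of the peptide transporter and an NF-kB target, stood at -0.45 with inhibitor (0.0612) and -0.11 without. CALR, a chaperone of class I assembly, had -0.44 with inhibitor and -0.45 without, and CANX, another such chaperone, 0.01 and -0.26. NLRC5, the class I counterpart of CIITA, was the one with the highest means, 0.38 with inhibitor and 0.41 without, and in both groups its 3-day array was high (0.77 and 0.68) and its 2-day array near 0 (-0.01 and 0.13). The list median was -0.10 with inhibitor and -0.01 without. Class I genes are near-identical to one another in sequence, and which of them the HLA-G probes read was not tested.

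Genes of costimulation and of class II partners at the surface gave no call among 14, against 4.57% of all genes with inhibitor and 0% without. The list median was -0.20 with inhibitor and -0.15 without. CD81 had -0.38 and MIF, a ligand of CD74, -0.33 with inhibitor, while ICOSLG stood at 0.36. Without inhibitor ICAM1, an adhesion molecule under NF-kB control, was lowest at -0.32, with CD82 at -0.27 and CD9 highest at 0.23. CD58, an adhesion ligand, was near 0 with inhibitor (0.03 and 0.02) and had -0.05 and -0.37 without. The 6 class II genes had a median of 0.10 with inhibitor and -0.08 without.

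**Figure D4:**
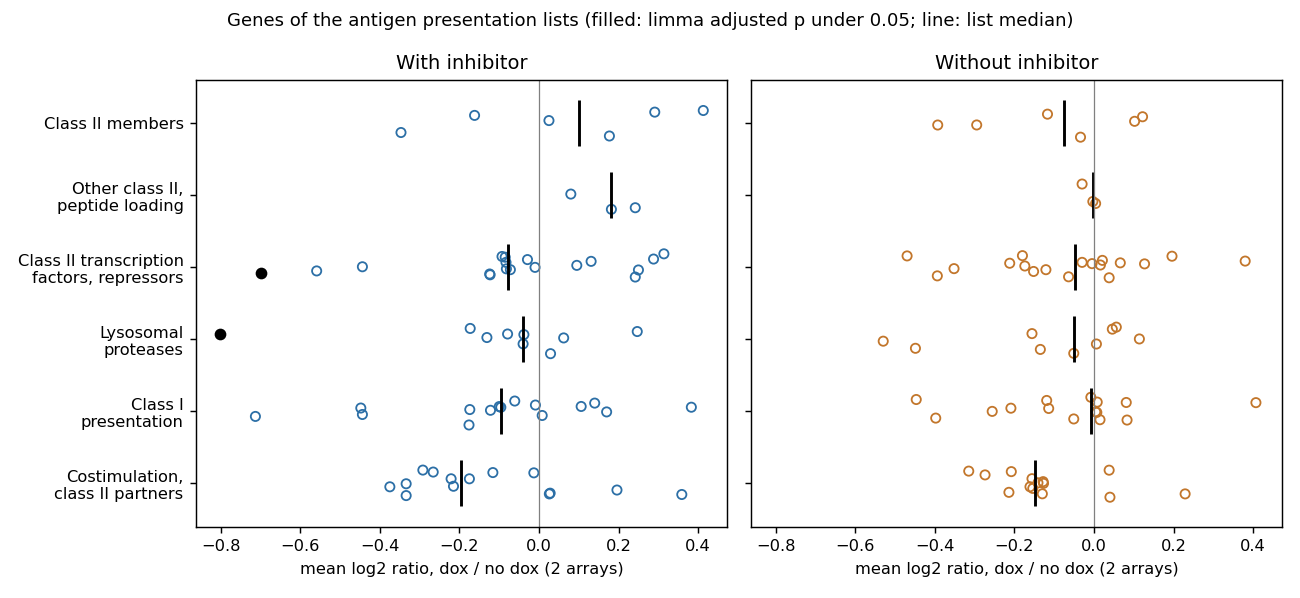
Mean log2 ratio of each gene of 6 lists on the inhibitor arrays (left) and on the arrays without inhibitor (right), x axis in log2 units. Open circles did not pass, filled circles passed limma at an adjusted p under 0.05 (IRF4 and CTSC, on the left), and vertical bars are list medians.

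T-cell markers, which this B-cell line should lack, had means above 0 for 7 of 7 measured genes with inhibitor (0.04 to 0.34, median 0.16). Without inhibitor 6 of 7 were above 0 (-0.05 to 0.20, median 0.05). Of all genes, 48.4% had a mean above 0 with inhibitor and 44.1% without. Myeloid markers had 2 of 4 above 0 in both groups, between -0.31 and 0.61 (CSF1R) with inhibitor and between -0.22 and 0.05 without. None was called, and a ratio does not show whether any was expressed. Their part in the class II ratios was not tested.

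The genes nearest to the mean profile of the 6 genes over the 4 arrays, by Euclidean distance of log2 ratios, were MPEG1 (0.12), EBAG9 (0.12), SPRED1 (0.12), CEP152 (0.12) and ZNF37A (0.12). The mean profile was -0.02 and 0.15 on the inhibitor arrays and 0.02 and -0.22 without inhibitor, and MPEG1 had -0.04 and 0.09 with inhibitor and -0.08 and -0.19 without. The distance counts a constant offset as well as the shape of a profile. Each of the 6 genes is part of the mean it was set against; HLA-DPA1 lay nearest to it (0.10) and HLA-DQA1 (0.72) and CIITA (0.70) farthest away.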

How the data were processed

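Total RNA was reverse transcribed from oligo-dT and hybridised to 4 two-colour arrays, with doxycycline in Cy5 and no doxycycline in Cy3, per the labels. The deposited values are log2 ratios, 1 per probe and array, as read here from the values; the sources used here give no background correction, normalization or filter, nor why some cells are empty. Without scanner signals, brightness over background is unknown. The number of arrays, 4, limits the precision. Probes with 1 gene symbol in the platform annotation (10169 of 15246) were used, and current symbols came from RefSeq by gene ID (10128 matched). Probes with a value on all 4 arrays (6796) were averaged per gene (3589 genes).

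One limma 3.58.1 fit (R 4.3.3, lmFit and eBayes, 2 residual and 4.98 prior degrees of freedom) gave the mean of each group against 0 and their difference, two-sided, with calls at 0.05 after Benjamini-Hochberg adjustment over all genes. The fit was tested on simulated data. Alternatives were median centring, equal spread, probes measured at least once in each group, single probes, the doxycycline day as a block and each array left out. Members, lists and tests were chosen with earlier results of these data known. Named genes are the 6 members, the 3 largest means of each list and comparison, any other measured gene of a list, and the 5 genes nearest to the members' mean profile. Promoter windows are from RefSeq (GRCh38.p14); the last 50 bases of each entry, after the gene start, were left out.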

Additional observations from a re-analysis of the deposited data

Results flagged for a closer look

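Among the 6 class II genes and the listed genes, 89 measured in all, 6 listed genes had both inhibitor arrays on one side of 0 and both arrays without inhibitor on the other. This was 6.74% of them, against 4.76% of all 3589 genes. HLA-DQB1 differed by 0.21 with minus without inhibitor, the acetyltransferase gene KAT2B by 0.45, CD58 by 0.23 and CD3E by 0.17, and the interferon regulatory factor gene IRF1 by -0.16 and the cathepsin gene CTSF by -0.19. The difference itself did not pass in limma for any of them (adjusted p = 0.989 for KAT2B and 0.999 for the others), and KAT2B, CTSF and CD3E rested on 1 probe each. None of the 6 class II genes had this pattern.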

How the results depend on the processing

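Of 144 recomputed member values, 132 kept their sign and their side of the threshold. Not all of these signs could change. Leaving out an array does not move the mean of the other group, and the day block moves no mean or difference. CIITA with inhibitor passed with the day as a block and without the 3 h array, the 2 changes of call. HLA-DRB1 without inhibitor turned to 0.019 after scaling to equal spread. When single arrays were left out, signs turned for HLA-DPA1 with inhibitor (-0.05 to 0.10), without inhibitor for HLA-DRA (-0.036 to 0.279), HLA-DRB1 (-0.12 to 0.055), HLA-DPA1 (-0.288 to 0.054) and CIITA (-0.005 to 0.21), and in the difference for HLA-DPA1 (-0.029 to 0.313), HLA-DQA1 (-0.12 to 0.21) and CD74 (-0.10 to 0.37). Each group has 2 arrays, so leaving 1 out gives the value of the remaining array. Signs of group means thus turned where the 2 arrays lay on opposite sides of 0. Why the arrays differed was not tested. Members called with inhibitor numbered 1 with the replicate block of day, 6 as single probes and 0 to 1 with an array left out; without inhibitor there was 1 as a single probe, and 0 for the difference throughout. The arrays of the same day deviated together from their group means (correlation 0.45 over genes), and the block changed no other call of a member.

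Over all genes, the 164 called with inhibitor became 109 after centring, 59 after scaling, 794 as probes, 908 with the block and 34 to 858 with an array left out. The 0 called without inhibitor became 84 after scaling, 70 as probes, 56 with the block and 0 to 231 with an array left out. The 0 of the difference became 4 with probes on at least 1 array per group and 0 to 119 with an array left out. Of the 35 probes, 34 were higher with inhibitor at 3 days after centring and 31 after scaling, and 11 and 13 at 2 days, in settings chosen after seeing the data.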

Other observations

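B-cell identity genes gave no call among 9 measured, with a median of -0.12 with inhibitor and -0.04 without. Of all genes, 4.57% were called with inhibitor and 0% without. POU2AF1, a coactivator of B-cell promoters, was lowest with inhibitor, at -0.33 (3 h) and -0.64 (24 h), against -0.09 and -0.15 at 2 and 3 days without it (adjusted p = 0.067 with inhibitor). CD37, a tetraspanin of B cells, was lowest without inhibitor, at -0.43, with -0.28 on the inhibitor arrays. CD79A, a chain of the B-cell receptor, had 0.29 and 0.12 with inhibitor and 0.09 and -0.41 without. These genes and those of the next paragraph were picked after their values were seen.

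Plasma cell markers gave no call among 6, against 4.57% of all genes with inhibitor and 0% without. In both groups 3 had a mean above 0 and 3 below, where 48.4% of all genes were above 0 with inhibitor and 44.1% without. The list median was 0.045 with inhibitor and -0.004 without. PRDM1 had 0.06 and -0.08 with inhibitor and 0.14 and 0.62 without, a difference of -0.39. TNFRSF17, the B-cell maturation antigen, was above 0 on all 4 arrays, with 0.39 and 0.35 with inhibitor and 0.27 and 0.15 without. CD38, a surface enzyme of activated B cells and plasma cells, had 0.59 on the 24 h array and lay between -0.16 and -0.005 on the others. XBP1, the factor of the secretory programme, stood at -0.25 with inhibitor and -0.33 without.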
